A study of Mus musculus with 8 samples.

Results

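The genes described here are 44 genes of the cell cycle and of DNA replication, taken by name from the 35087 named genes measured in laser-microdissected granulosa cells of mouse ovarian follicles. They comprise 13 genes of G1 and its control, 11 genes of S phase and 20 genes of G2 and mitosis (G2/M), and all 44 had enough reads to be tested. Granulosa cells are the somatic cells that surround the oocyte. The cKO group (n = 2 libraries), called a Hif1a knockdown in the genotype label, came from females with Hif1a alleles flanked by loxP sites and with Foxl2-CreERT2, a Cre recombinase that tamoxifen activates and that is expressed from the granulosa cell gene Foxl2. The WT group (n = 6 libraries) came from females with the same floxed Hif1a alleles and no Cre, so the WT label means unrecombined and not free of the floxed allele. Females of both groups were reared to 3 weeks of age, received tamoxifen at 100 mg/kg daily for 5 days, and gave their ovaries 7 days after the last dose. Which animal or follicle stage each library came from is not in the labels, so p-values measure the spread between these libraries only and are too small where libraries share an animal. The library names of all 8 samples begin with cKO, also for the 6 that the titles and genotype labels call WT; the titles were followed, and this doubt applies to every comparison.

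The libraries held 2054584 and 651426 reads on named genes in cKO, against 1594803 to 4719293 in WT. Levels are given as CPM, the reads of a gene scaled to a common library size, and the limit that a count of 0 allows (3 reads) was 1.52 and 4.10 CPM in cKO and 0.655 to 1.65 CPM in WT. Hif1a, the targeted gene, had 22.3 and 13.7 CPM in cKO, against 35.5 to 106.2 CPM in WT. The granulosa cell markers were present in every library (12 of 12 with at least 5 reads each), with a summed level of 6737 and 2438 CPM in cKO and of 5012 to 68287 CPM in WT. Inhba had 51.7 and 93.5 CPM in WT replicates 1 and 2 and 2250 to 11052 CPM in replicates 3 to 6. The cKO libraries had 351 and 61.5 CPM of Inhba. Amh had 767 and 1126 CPM in WT replicates 1 and 2 and 2.34 to 176 CPM in replicates 3 to 6. The cKO libraries had 610 and 224 CPM of Amh. Foxl2 did not divide the WT libraries so, at 91.4 to 332 CPM in WT and 126 and 88.8 CPM in cKO. Genes with at least 5 reads numbered 12847 and 12120 in cKO and 13597 to 14727 in WT, and the mitochondrial genome took 8.87% and 10.5% of reads in cKO and 1.42% to 3.65% in WT. Markers of stroma summed to 1341 and 372 CPM in cKO and to 16.6 to 1002 CPM in WT, those of theca to 213 and 143 CPM in cKO and to 41.5 to 260 CPM in WT, those of endothelium to 280 and 257 CPM in cKO and to 86.9 to 415 CPM in WT, and those of blood and immune cells to 272 and 60.1 CPM in cKO and to 41.0 to 226 CPM in WT. The part of the mitochondrial share, of the differences in granulosa cell markers and of these other markers in the results was not tested. A fit with detected genes as a covariate is given beside some of the results that it moved. Both cKO libraries had fewer detected genes than every WT library, so this fit separates that number from the group poorly. Other values moved as well, among them Hif1a, with a fitted log2 difference, cKO over WT, of -1.84, and of -0.32 with that covariate. In cut tissue, fewer dividing cells and less RNA per cell cannot be told apart.

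As background, granulosa cells multiply as a follicle grows. D-type cyclins with CDK4 and CDK6, then E-type cyclins with CDK2, phosphorylate the retinoblastoma protein and release E2F factors, which drive the genes of DNA replication. Genes of G2 and mitosis are expressed later, and many of them are repressed outside that window through a promoter element called the cell cycle genes homology region (CHR), with CCAAT boxes beside it. Cyclin D2 is the D-type cyclin that mouse granulosa cells are known to depend on for their proliferation.

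The promoters of 4 members are shown because they hold these elements and because the members differ in the comparison: Ccnb2, Cdk1 and Rrm2 had lower means in cKO, and the means of Top2a were alike. Each sequence is a RefSeq window (GRCm38.p6) of 250 bases before to 30 bases after the annotated start, read 5′ to 3′ on the gene's strand: Ccnb2 at chr9:70421525-70421804 (minus), Cdk1 at chr10:69352883-69353162 (minus), Rrm2 at chr12:24708004-24708283 (plus) and Top2a at chr11:99024160-99024439 (minus). Capitals mark the letters of CHR, CCAAT and E2F elements, each searched on both strands. The CHR was searched as TTTGAA and in its rarer variant form as TTCGAA. The E2F element was searched as TTGGCGC in the first place, with the alternative spelling TTCCCGC being accepted as well. The further alternative spelling TTCGCGC was accepted too, and the last spelling that was accepted was TTGCCGC.
Ccnb2: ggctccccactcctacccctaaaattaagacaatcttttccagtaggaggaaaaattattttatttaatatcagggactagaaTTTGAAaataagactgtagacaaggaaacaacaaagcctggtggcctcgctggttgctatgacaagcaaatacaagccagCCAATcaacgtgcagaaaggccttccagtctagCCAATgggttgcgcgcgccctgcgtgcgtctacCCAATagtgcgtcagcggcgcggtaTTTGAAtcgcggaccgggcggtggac
Cdk1: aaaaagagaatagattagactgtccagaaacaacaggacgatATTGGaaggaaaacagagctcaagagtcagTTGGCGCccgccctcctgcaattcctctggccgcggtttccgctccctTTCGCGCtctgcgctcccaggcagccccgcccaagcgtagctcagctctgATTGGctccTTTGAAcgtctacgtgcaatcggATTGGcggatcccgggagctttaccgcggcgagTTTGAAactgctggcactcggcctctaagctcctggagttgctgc
Rrm2: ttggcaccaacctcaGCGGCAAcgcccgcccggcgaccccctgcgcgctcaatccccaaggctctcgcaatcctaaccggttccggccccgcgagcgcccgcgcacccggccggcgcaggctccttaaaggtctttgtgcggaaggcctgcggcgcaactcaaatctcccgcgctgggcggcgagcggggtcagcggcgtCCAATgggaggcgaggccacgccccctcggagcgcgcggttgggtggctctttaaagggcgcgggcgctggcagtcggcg
Top2a: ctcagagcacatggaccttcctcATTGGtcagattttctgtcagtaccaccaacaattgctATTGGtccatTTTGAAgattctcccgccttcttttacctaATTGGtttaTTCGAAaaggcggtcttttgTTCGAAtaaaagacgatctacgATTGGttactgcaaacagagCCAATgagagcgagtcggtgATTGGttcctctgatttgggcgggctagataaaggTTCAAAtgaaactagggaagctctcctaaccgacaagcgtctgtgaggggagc
The Ccnb2 window held 2 CHR matches, 3 CCAAT boxes and 0 E2F matches, and the Cdk1 window held 2 CHR matches, 3 CCAAT boxes and 2 E2F matches. The Rrm2 window held 1 CCAAT box, 1 E2F match and 0 CHR matches. The Top2a window held 4 CHR matches, 6 CCAAT boxes and 0 E2F matches.

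Of the members, 34 matched a window of the RefSeq table (the others are Ccnd1, Ccnd2, Ccne2, Cdkn1c, Rb1, Mcm4, Ccna2, Foxm1, Aurkb and Tpx2). CHR letters were in the windows of 10 of 16 G2/M members (62.5%), 2 of 10 S phase members (20%) and 0 of 8 G1 members, against 20.9% of the 27025 genes in the table. E2F letters were in 7 of 10 S phase members (70.0%), 3 of 16 G2/M members (18.8%) and 2 of 8 G1 members (25%), against 10.1% of all genes. CCAAT boxes were in 14 of 16 G2/M members (87.5%), 8 of 10 S phase members (80.0%) and 4 of 8 G1 members (50%), against 39.7% of all genes. The core letters that HIF1 binds (ACGTG and the variant GCGTG, both strands, overlaps with the other elements allowed and not marked above) were in 25 of 34 members (73.5%) and 44.7% of all genes. By class they were in 8 of 8 G1 members (100%), 6 of 10 S phase members (60%) and 11 of 16 G2/M members (68.8%). A match of letters is a description of the window and not a binding site. A gene with several windows counted where any of them held the letters. The 27025 genes were not limited to those tested here, and the shares were not adjusted for base composition. The reason for the difference from all genes was not tested.

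Over all 44 members, 31 had a lower and 13 a higher fitted level in cKO than in WT (log2 fold change or log2 difference, cKO over WT), against 52.7% lower among the 15102 genes tested. No member passed the adjusted threshold of 0.05 in edgeR's quasi-likelihood test, and neither did any other gene (0% of genes called; the smallest adjusted p of a member was 0.369). At an unadjusted p under 0.05 that test had 1342 genes lower and 513 higher, and DESeq2 called 274 genes at its adjusted threshold. Among the members 4 had an unadjusted p under 0.05 and were all lower in cKO: Ccnb2, Ccna2, Aurka and Rrm2. The same limit took 8.89% of all genes lower and 3.4% higher. In 6 members (Cdkn2c, Rb1, Rrm1, Ccna2, Ccnb2 and Aurka) both cKO libraries lay below all WT libraries, against 6.41% of all genes, and in 0 members did both lie above all WT libraries, against 6.02% of all genes. DESeq2 gave an adjusted p to 37 members and called 1, Ccnb2, as lower. Of the 6881 genes to which it gave an adjusted p, it called 3.53% lower and 0.451% higher. The count of 4 was 12 without WT replicate 1, 8 without cKO replicate 1 and 1 without cKO replicate 2, where 20.2%, 12.7% and 5.29% of all genes were past the same limit in either direction, against 12.3% with all libraries.

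**Figure D1:**
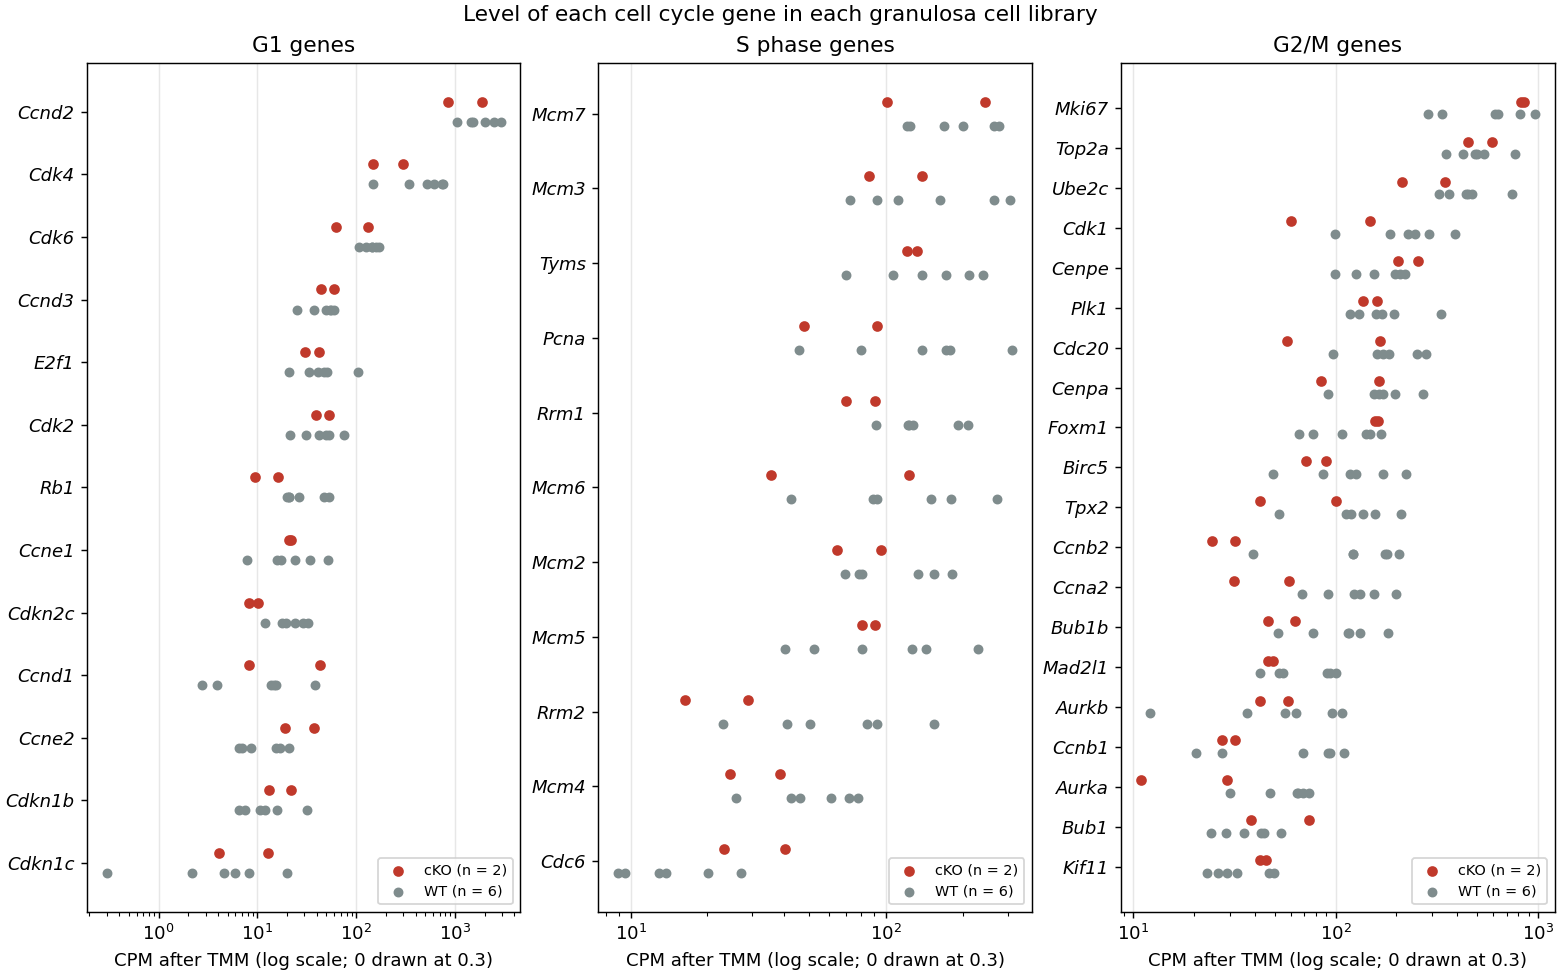
Each point is the level of a gene in a library as CPM after TMM scaling (log axis), with the 2 cKO libraries in red above the 6 WT libraries in grey, for the 13 G1, 11 S phase and 20 G2/M genes. Both cKO points lie below all WT points for Ccnb2, Ccna2, Aurka, Rrm1, Rb1 and Cdkn2c, and the groups overlap for the other genes. A level of 0 (Cdkn1c in WT replicate 1) is drawn at the left edge.

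Among the genes of G1, most reads of the D-type cyclins came from Ccnd2. Ccnd2 had 1902 and 855 CPM in cKO, against a lowest, median and highest level of 1047, 1771 and 2910 CPM in WT. It made up 94.9% and 94.3% of the summed D-cyclin CPM in cKO and 94.2% to 98.6% in WT. Per kilobase of its longest annotated transcript, Ccnd2 was also the most abundant of the 44 members, with a mean level of 218 CPM per kilobase in cKO and 300.4 in WT. One cKO library lay inside the WT range and the other below it. Ccnd1, another D-type cyclin, had 43.1 and 8.20 CPM in cKO, against 2.73, 14.3 and 38.5 CPM in WT. Ccnd3 had 59.9 and 43.7 CPM in cKO, against 25.4, 51.8 and 59.5 CPM in WT. Exons of these cyclin genes share bases with genes on the other strand, at most 1100 for Ccnd1, 372 for Ccnd2 and 361 for Ccnd3.

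The partners of the D-type cyclins had lower means in cKO. Cdk4 had 298 and 148 CPM in cKO, against 148, 570.3 and 767 CPM in WT, and the groups overlapped only through WT replicate 1. Its fitted log2 difference was -1.23 ± 0.64 (SE; edgeR adjusted p = 0.445), and 0.023 with detected genes as a covariate. Reads of Cdk4 cannot be separated by strand from Tspan31, whose exons overlap it on the other strand by 641 bases. Cdk6, the second partner kinase, had 132 and 62.8 CPM in cKO, against 108, 145 and 172 CPM in WT. Its fitted log2 difference was -0.54 ± 0.43 (SE; edgeR adjusted p = 0.608), and the gene shares 368 exon bases with Gm17590 on the other strand.

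The next cyclins, which activate CDK2 at the entry into S phase, did not share a direction. Ccne2 had 37.6 and 19.1 CPM in cKO, against 6.59, 12.2 and 20.8 CPM in WT, with a fitted log2 difference of 1.18 ± 0.62 (SE; edgeR adjusted p = 0.446), or 0.18 with detected genes as a covariate. Of the WT libraries, replicate 2 lay inside the cKO range. Its exons share 609 bases with Ints8 on the other strand. Ccne1 had 20.8 and 21.9 CPM in cKO, against 7.80, 20.6 and 51.4 CPM in WT, and Cdk2 had 53.8 and 39.6 CPM in cKO, against 21.4, 45.8 and 76.2 CPM in WT. For both genes the cKO libraries lay within the WT range.

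The inhibitors of G1 were among the members with few reads, and per kilobase Cdkn1b had the lowest mean level over all libraries, 3.28 CPM per kilobase. Cdkn2c, which encodes the CDK4 and CDK6 inhibitor p18, had 10.1 and 8.20 CPM in cKO, below each WT library at 12.1 to 32.4 CPM (median 22.0 CPM), with a fitted log2 difference of -1.28 ± 0.62 (SE; edgeR adjusted p = 0.422). Its cKO level rested on 26 reads. Rb1, which encodes the retinoblastoma protein, had 16.2 and 9.56 CPM in cKO, below each WT library at 19.8 to 53.2 CPM (median 23.6 CPM), with a fitted log2 difference of -1.25 ± 0.61 (SE; edgeR adjusted p = 0.427) on 39 cKO reads; its exons overlap Lpar6 and Rcbtb2 on the other strand. Cdkn1b, which encodes the inhibitor p27, had 13.2 and 21.9 CPM in cKO, against 6.53, 11.4 and 31.6 CPM in WT. Cdkn1c, which encodes the inhibitor p57, had 12.7 and 4.10 CPM in cKO, against 0, 5.24 and 19.95 CPM in WT. For both inhibitors the groups overlapped. E2f1, the S phase transcription factor gene, had 42.6 and 30.1 CPM in cKO, against 21.0, 44.7 and 104 CPM in WT. Of the 13 G1 members 7 were lower and 6 higher, and their median log2 fold change was -0.23, against -0.08 over all genes tested; the sign of this median depended on the library left out (-0.80 without cKO replicate 1, 0.050 without WT replicate 2, 0.012 without WT replicate 6, where the medians of all genes were -0.27, -0.043 and 0.014).

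The S phase genes were lower in cKO in 10 of 11 members, with a median log2 fold change of -0.58, against -0.08 over all genes tested. With detected genes as a covariate 8 were lower and 3 higher, and their median was -0.10, against -0.26 over all genes in that fit. Both subunits of ribonucleotide reductase, the enzyme that makes deoxyribonucleotides, had lower means. Rrm2, its cell cycle-regulated subunit (chromosome 12), had 28.9 and 16.4 CPM in cKO, against 23.1, 67.5 and 154 CPM in WT, with a fitted log2 difference of -1.68 ± 0.68 (SE; edgeR unadjusted p = 0.0271 and adjusted p = 0.378). WT replicate 1 was the only WT library inside the cKO range. Rrm1, the large subunit, had 90.3 and 69.7 CPM in cKO, below each WT library at 91.8 to 209 CPM (median 126 CPM), with a fitted log2 difference of -0.85 ± 0.45 (SE; edgeR adjusted p = 0.454). The gap between the higher cKO library and the lowest WT library was 90.3 against 91.8 CPM.

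Pcna, the sliding clamp of DNA polymerases, had 92.4 and 47.8 CPM in cKO, against 45.6, 155 and 311 CPM in WT, with a fitted log2 difference of -1.13 ± 0.65 (SE; edgeR adjusted p = 0.484). The 6 subunits of the MCM helicase, which unwinds DNA at replication origins, were all lower in cKO by the fitted value, with no member past the threshold and with Mcm4 at 0.011 and Mcm7 at 0.19 once detected genes entered the fit as a covariate. Mcm4 had 38.6 and 24.6 CPM in cKO, against 25.8, 53.4 and 77.5 CPM in WT (log2 fold change -0.76 ± 0.50, SE; edgeR adjusted p = 0.540). Mcm2 had 95.9 and 64.2 CPM in cKO, against 69.2, 107 and 182 CPM in WT, Mcm5 had 90.8 and 80.6 CPM in cKO, against 40.2, 104 and 229.8 CPM in WT, and Mcm6 had 123 and 35.5 CPM in cKO, against 42.3, 121 and 271 CPM in WT. Mcm7 had 245 and 101 CPM in cKO, against 121, 184 and 277 CPM in WT, and Mcm3 had 139 and 86.1 CPM in cKO, against 72.5, 137 and 307 CPM in WT. Mcm7 shares exon bases with Ap4m1 and Cops6 on the other strand. For each of these subunits the cKO libraries overlapped the WT libraries. The sign for Mcm7 and Mcm5 turned when single libraries were left out (0.29 and 0.07 at the highest).

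Tyms, thymidylate synthase, had 121 and 132 CPM in cKO, against 69.4, 155 and 239 CPM in WT, so both cKO libraries lay inside the WT range. Cdc6, which loads the MCM helicase onto origins, was the exception among the S phase members. Cdc6 had 40.1 and 23.2 CPM in cKO, against 8.95, 13.3 and 27.1 CPM in WT, with a fitted log2 difference of 1.05 ± 0.57 (SE; edgeR adjusted p = 0.460), or 0.21 with detected genes as a covariate. Here WT replicate 2 was the only WT library inside the cKO range. The S phase median was -1.03 when cKO replicate 1 was left out, -0.37 for cKO replicate 2 and -0.26 for WT replicate 6, where the medians of all genes were -0.27, -0.34 and 0.014. Without cKO replicate 2 the S phase median was thus near that of all genes.

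**Figure D2:**
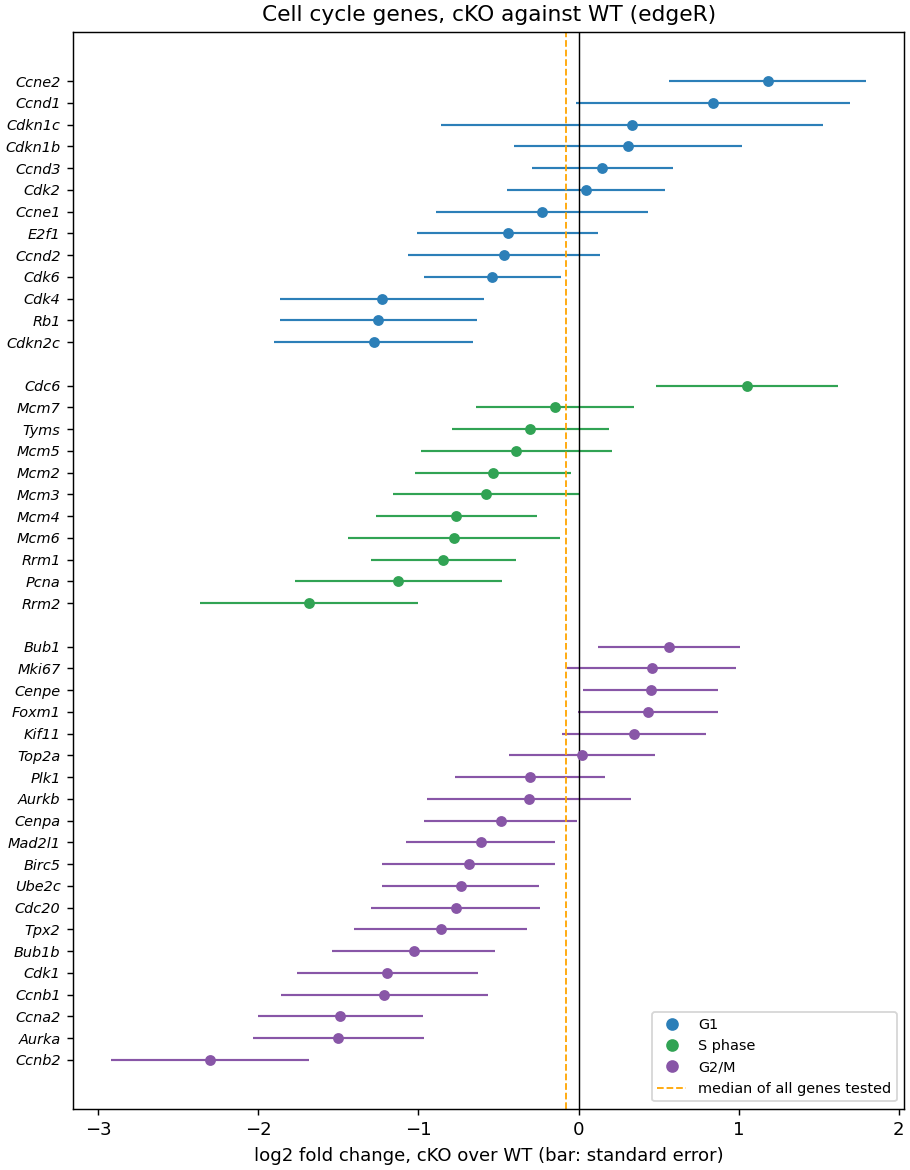
Points give the log2 fold change of each gene, cKO over WT, and bars its standard error in edgeR's fit, by class; the dashed line is the median of all genes tested (-0.08). Ccnb2 lies lowest at -2.30 and Ccne2 highest at 1.18.

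By the fitted value, the G2/M genes split into members that were lower in cKO and members at or above the WT level. Of the 20, 14 were lower and 6 higher, and the median log2 fold change was -0.65. The sign was not stable for some members: it turned for Top2a, Bub1 and Aurkb when single libraries were left out. With a block on replicate number, Mki67 (-0.087), Kif11 (-0.14) and Top2a (-0.24) turned lower, and Aurkb (0.90) and Birc5 (0.079) turned higher. With detected genes as a covariate, Aurkb (0.85) and Mad2l1 (0.35) turned higher. The lower members included the mitotic cyclins and their kinase. Ccnb2 (cyclin B2) had 32.0 and 24.6 CPM in cKO, against 39.0, 122, 122, 175, 179 and 205 CPM in WT replicates 1 to 6. Every WT library lay above both cKO libraries, WT replicate 1 by the smallest gap. Its fitted log2 difference was -2.30 ± 0.62 (SE; edgeR unadjusted p = 0.00237 and adjusted p = 0.369), and it was called by DESeq2 (adjusted p = 0.0131).

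Ccna2 (cyclin A2, of S phase and G2) had 58.9 and 31.4 CPM in cKO, against 68.1, 131, 91.6, 123, 155 and 199 CPM in WT replicates 1 to 6, again with no overlap. Its fitted log2 difference was -1.49 ± 0.52 (SE; edgeR unadjusted p = 0.0121 and adjusted p = 0.369), and its exons share 510 bases with Exosc9 on the other strand. Cdk1, the kinase that both cyclins activate, had 148 and 60.1 CPM in cKO, against 99.5, 237 and 390.2 CPM in WT, with WT replicate 1 as the only WT library inside the cKO range. Its fitted log2 difference was -1.19 ± 0.57 (SE; edgeR adjusted p = 0.411). Ccnb1 (cyclin B1) had 32.0 and 27.3 CPM in cKO, against 20.3, 80.4 and 111 CPM in WT.

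Aurka, the kinase of centrosome maturation and spindle assembly, had 28.9 and 10.9 CPM in cKO, against 47.3, 74.1, 30.03, 64.3, 69.1 and 65.0 CPM in WT replicates 1 to 6. The groups did not overlap, and cKO replicate 1 and WT replicate 3 were nearly level. Its fitted log2 difference was -1.50 ± 0.53 (SE; edgeR unadjusted p = 0.0141 and adjusted p = 0.369). Bub1b, which encodes the checkpoint protein BubR1, had 62.9 and 46.4 CPM in cKO, against 52.0, 116 and 181 CPM in WT (log2 fold change -1.03 ± 0.51, SE; edgeR adjusted p = 0.427). Ube2c, the ubiquitin-conjugating enzyme of the anaphase-promoting complex, had 348 and 212 CPM in cKO, against 323, 446 and 748 CPM in WT, and shares 592 exon bases with Tnnc2 on the other strand. Cdc20, an activator of the complex, had 165 and 57.4 CPM in cKO, against 96.7, 177 and 281 CPM in WT.

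The members at or above the WT level were Mki67, Top2a, Cenpe, Kif11, Bub1 and Foxm1. With detected genes as a covariate only Bub1 of these had a value above 0 (0.70), and Mki67 was at -0.99, Cenpe at -0.64, Foxm1 at -0.64, Top2a at -0.47 and Kif11 at -0.14. Mki67, whose protein Ki-67 marks cycling cells, had 849 and 821 CPM in cKO, against 814, 966, 634, 334, 285 and 616 CPM in WT replicates 1 to 6. Top2a, the DNA topoisomerase of chromosome condensation, had 591 and 449 CPM in cKO, against 352, 494 and 766 CPM in WT. Both genes had cKO levels inside the WT range. Cenpe, a kinetochore motor gene, had 203 and 255 CPM in cKO, against 99.6, 176 and 220.1 CPM in WT. Kif11, a spindle motor gene, had 45.2 and 42.3 CPM in cKO, against 23.1, 30.7 and 49.5 CPM in WT. Bub1, the checkpoint kinase, had 73.6 and 38.2 CPM in cKO, against 24.2, 38.9 and 53.6 CPM in WT, and Foxm1, the transcription factor of G2/M genes, had 156 and 163 CPM in cKO, against 65.8, 125 and 168 CPM in WT. The level of Mki67 relative to Ccnb2 was 26.6-fold and 33.4-fold in cKO, against 20.9, 7.93, 5.18, 1.91, 1.59 and 3.00-fold in WT replicates 1 to 6, a ratio chosen after the values were seen.

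Other members of spindle assembly and the checkpoint lay between these extremes. Plk1, the polo kinase, had 160.4 and 137 CPM in cKO, against 118, 163 and 331 CPM in WT. Of the chromosomal passenger genes, Aurkb had 57.9 and 42.3 CPM in cKO, against 12.1, 60.2 and 107 CPM in WT, and Birc5 had 71.0 and 90.2 CPM in cKO, against 48.9, 121 and 224 CPM in WT. Tpx2, which activates Aurora A, had 101 and 42.3 CPM in cKO, against 52.8, 128 and 210 CPM in WT. Mad2l1, a checkpoint gene, had 46.2 and 49.2 CPM in cKO, against 42.1, 72.9 and 101 CPM in WT, and Cenpa, the centromeric histone gene, had 164 and 84.7 CPM in cKO, against 91.2, 168 and 270.2 CPM in WT. For each of these genes the groups overlapped. The G2/M median was -0.41 when WT replicate 5 was left out, -0.36 for WT replicate 6 and -0.35 for cKO replicate 2, where the medians of all genes were 0.0092, 0.014 and -0.34. Without cKO replicate 2 the G2/M median was thus near that of all genes.

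As sums, the G2/M genes had 3394 and 2684 CPM in cKO, against 2879, 4961, 3326, 2946, 3277 and 4444 CPM in WT replicates 1 to 6. The S phase genes summed to 1104 and 682 CPM in cKO, against 698, 1634, 758, 1126, 1484 and 2247 CPM in the same WT order. WT replicates 2 and 6 were the highest in both sums. The G2/M sum of cKO replicate 1 lay above those of the other WT libraries and that of cKO replicate 2 below them, and the groups overlapped in both sums. The G1 sums, mostly of Ccnd2, were 2643 and 1272 CPM in cKO. In WT replicates 1 to 6 they were 2075, 3878, 1813, 3169, 2572 and 3512 CPM. WT replicates 2 and 6 were again the highest, and cKO replicate 2 lay below all WT libraries. WT replicates 2 and 6 also held the highest sums of 15 oocyte markers, 933 and 2925 CPM, where cKO libraries had 82.2 and 54.6 CPM and the remaining WT libraries 20.2 to 236 CPM. All 15 oocyte markers had at least 5 reads in WT replicates 2 and 6, against 12 and 3 of 15 in cKO and 3 to 12 of 15 in the remaining WT libraries. Dppa3 had no read in either cKO library, and Zp2, Bmp15 and Oog1 had none in cKO replicate 2. Without both of these WT libraries the median log2 fold change was -0.40 for the G2/M members and -0.21 for the S phase members, and 5 members (3 lower and 2 higher) had an unadjusted p under 0.05, where 10.4% of all genes did.

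**Figure D3:**
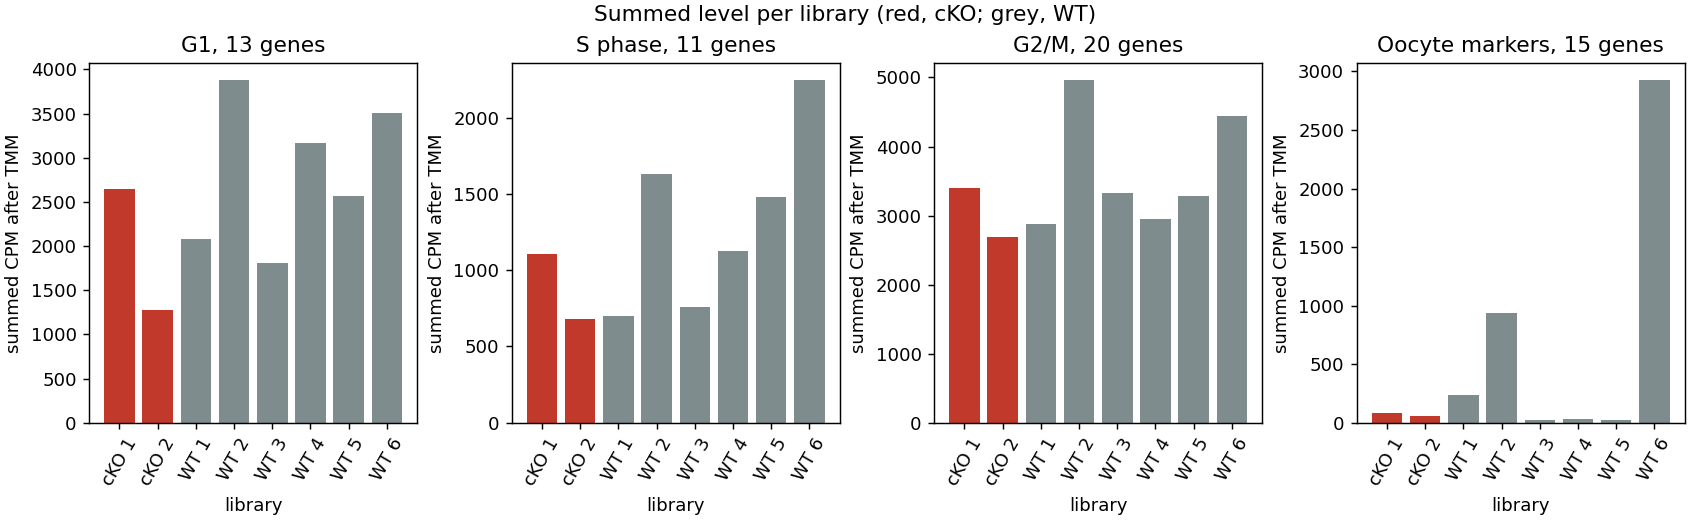
Bars give the summed CPM after TMM scaling in each library, cKO in red and WT in grey, for G1, S phase and G2/M genes and for 15 oocyte markers. WT replicates 2 and 6 have the highest G1, S phase, G2/M and oocyte marker sums. The cKO sums of G2/M genes (3394 and 2684 CPM) lie below those of both these libraries.

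By a division chosen after the values were seen, the split among the G2/M members ran along transcript length, taken as the longest annotated coding transcript. Of the 9 G2/M members under the members' median length of 3248.5 bases, 9 were lower in cKO, with a median log2 fold change of -0.77. Of the 11 longer ones, 5 were lower, with a median of 0.02. Ccnb2 (1531 bases) and Aurka (1905 bases) were among the short ones, and Mki67 (10061 bases), Cenpe (7910 bases) and Top2a (5221 bases) among the long ones, while Cdk1 (4375 bases) was long and lower in cKO. Of the S phase members 5 of 5 short and 5 of 6 long ones were lower (Pearson's r 0.59, Spearman's rho 0.30), and of the G1 members 4 of 8 short and 3 of 5 long ones (r -0.09, rho -0.18). The same trend was present over all genes tested with a length: 4725 of 7780 short genes were lower, with a median of -0.34, and 3149 of 7158 long genes, with a median of 0.14. Across the 20 G2/M genes, Pearson's r between log2 length and log2 fold change was 0.56 (Spearman's rho 0.54), and across 14938 genes it was 0.21 (rho 0.24), as a description of genes that share the same libraries.

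In single libraries, the summed level of long over short G2/M members was 2.24 and 3.28 in cKO, against 2.32, 1.53, 1.80, 1.09, 1.15 and 1.34 in WT replicates 1 to 6. WT replicate 1 thus lay between the cKO libraries. The long sum was 2348 and 2057 CPM in cKO and 1536 to 3000 CPM in WT. Much of it came from Mki67 and Top2a, whose levels are given above. Among the S phase members the ratio of long over short was 0.765 and 0.776 in cKO, inside the WT range of 0.656 to 1.03. Of the CPM of genes tested with a length, those under 3248.5 bases took 64.2% and 50.7% in cKO, against 55.1% to 70.3% in WT. In a fit with each library's length trend removed, chosen after the data were seen, the median log2 fold change was -0.50 for the G2/M members and -0.56 for the S phase members, 7 members had an unadjusted p under 0.05, where 11% of all genes did, and 0 passed the adjusted threshold.

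**Figure D4:**
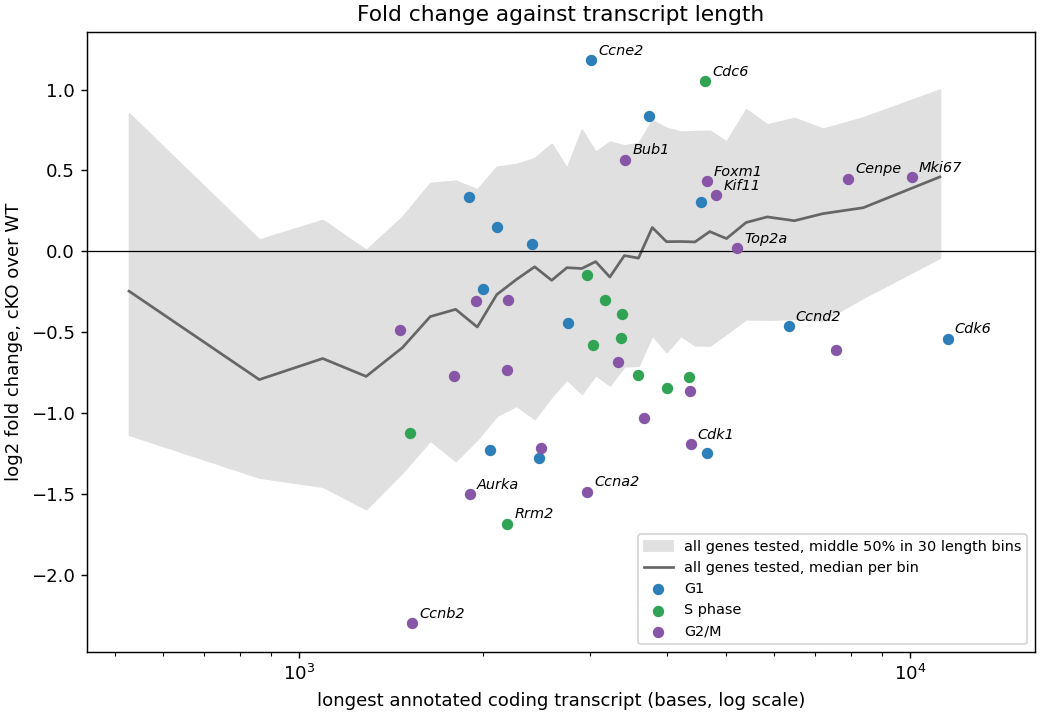
Each coloured point is a cell cycle gene, with its longest annotated coding transcript in bases (log axis) and its log2 fold change, cKO over WT; the grey line and band give the median and middle 50% of all genes tested in 30 length bins. The all-gene median lies below 0 for short and above 0 for long transcripts, and Ccnb2, Rrm2, Ccna2 and Aurka lie below it.

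Other genes of the pathway, which are not among the 44, were found in both directions. Of 19 further G1 genes tested, 10 were lower and 9 higher, with 0 at an unadjusted p under 0.05; the smallest p values were those of E2f8 (log2 fold change 1.195 ± 0.69, SE) and E2f6 (0.87 ± 0.51, SE), members of the E2F family. Of 40 further replication genes 22 were lower and 18 higher, with 3 lower and 1 higher at an unadjusted p under 0.05 and a median of -0.09. Over all genes tested 52.7% were lower, with 8.89% lower and 3.4% higher at that limit and a median of -0.08. The counts of these lists were near those shares. Pola1, the catalytic subunit of DNA polymerase alpha, had 144 and 199 CPM in cKO, above each WT library at 28.05 to 103 CPM (log2 fold change 1.43 ± 0.48, SE; edgeR adjusted p = 0.369). The value of Pola1 was 0.0044 with detected genes as a covariate. Dut, the dUTPase that keeps uracil out of DNA, had 79.2 and 77.9 CPM in cKO, below each WT library at 93.2 to 358 CPM (log2 fold change -1.47 ± 0.57, SE; edgeR adjusted p = 0.374).

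Of 52 further G2/M genes 28 were lower and 24 higher, with 4 lower and 0 higher at an unadjusted p under 0.05 and a median of -0.10. These counts too were near the shares of all genes (52.7% lower, with 8.89% lower and 3.4% higher at that limit). Spc25, a subunit of the NDC80 kinetochore complex, had 12.2 and 17.8 CPM in cKO, below each WT library at 25.8 to 94.7 CPM (log2 fold change -2.01 ± 0.61, SE; edgeR adjusted p = 0.369). Fzr1, which encodes the anaphase-promoting complex activator Cdh1, had 9.13 and 41.0 CPM in cKO, below each WT library at 43.4 to 101 CPM (log2 fold change -1.72 ± 0.59, SE; edgeR adjusted p = 0.369). Spc25 and Fzr1 rested on 37 and 48 cKO reads. By length, 17 of 28 short and 11 of 24 long further G2/M genes were lower. Over all genes it was 4725 of 7780 short and 3149 of 7158 long ones, a like share.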

How the data were processed

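Granulosa cells were cut out by laser, their polyA RNA was amplified by Smart-seq2, and Tn5 was used to build the libraries, per the labels' protocols; strand is not marked. HISAT2, Salmon and the build mm10 are listed in the submitters' processing notes; their versions and the annotation are not given in the sources used here. Files deposited by the authors hold estimated counts of reads and TPM for each gene. The deposited lengths of some genes are far below their longest annotated transcript (a mean of 251 bases for Ccnd2, against 6330), so lengths were taken from GENCODE M21 (GRCm38), which matched 34130 of 35087 named rows. Another 1548 rows with only a transcript identifier (0.435% to 0.739% of reads) were left out.

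Estimated counts were rounded. filterByExpr (minimum count 10, minimum total 15) kept 15102 genes. edgeR 4.0.16 (R 4.3.3) with TMM scaling, glmQLFit and glmQLFTest and group as the only term gave log2 fold changes of cKO over WT and Benjamini-Hochberg adjusted p over all genes; standard errors come from the F statistic. CPM is after TMM. DESeq2 1.42.0, limma 3.58.1 (voom, and log2(TPM + 1) of the deposited TPM) and other settings were alternatives. No libraries were near duplicates: the chi-square per degree of freedom was 13.0 to 99.5 over 28 pairs. The limits given for a count of 0 cover counting error only. Fold changes are given for the 5 members of each class and the 2 further genes of each list with the smallest p. All members are given by both cKO values, and most by the lowest, median and highest WT value. The value of every WT library is given for Ccnb2, Ccna2, Aurka and Mki67. The members and lists were chosen with earlier results of these data known.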

Additional observations from a re-analysis of the deposited data

Results flagged for a closer look

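Among the 6 WT libraries, 4 of the 44 members had a library far from the rest. Chance flags about 1 in 20 groups of independent, normally distributed values. Untransformed CPM of genes from the same libraries were used, so that rate is only a guide. Of 62 sets looked at, members and sums together, 6 were flagged. WT replicate 1 had 38.5 CPM of Ccnd1, with the nearest WT library at 15.3 CPM, a gap of 0.648 of the WT range. WT replicate 6 had 104 CPM of E2f1, with the nearest at 50.3 CPM (0.649 of the range). WT replicate 2 had 331 CPM of Plk1, with the nearest at 195 CPM (0.64 of the range), and 748 CPM of Ube2c, with the nearest at 475 CPM (0.643 of the range). The summed oocyte markers of WT replicate 6, 2925 CPM, lay above the nearest WT library at 933 CPM (0.686 of the range). The summed endothelial markers of WT replicate 1, 415 CPM, lay above the nearest at 173 CPM (0.737 of the range). The part of these libraries in the comparisons was measured only by leaving each one out.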

How the results depend on the processing

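The count of members past the adjusted threshold was 0 in edgeR's main analysis and in every alternative but 2, DESeq2 and no filter on low counts, each with 1 member (Ccnb2, adjusted p = 0.0131 and 0.00962; 0.0695 to 1 in the other alternatives). The count over all genes, 0 in the main analysis, was 274 with DESeq2, 478 without a filter, 5 with limma on log2(TPM + 1), 1 with the replicate block, and 0 to 1 when single libraries were left out. The count of members at an unadjusted p under 0.05, 4 in the main analysis (12.3% of all genes), was 9 without a filter (13.8% of all genes), 7 with limma-voom (5 lower and 2 higher; 16.5%), 7 with limma on log2(TPM + 1) (6 lower and 1 higher; 13.9%), 7 with the length trend removed (11%), 0 with the replicate block (1.19%), 0 with detected genes entered as covariate (3.24%), and 1 to 12 when single libraries were left out. The G1 median was 0.066 with limma-voom, 0.11 with limma on log2(TPM + 1), -0.025 with at least 10 reads in 6 libraries, -6.0e-05 with the length trend removed, -0.017 without WT replicates 2 and 6, and from -0.80 to 0.050 over the libraries left out. The G2/M median was -0.30 with the replicate block and from -0.87 to -0.35 over the libraries left out, and the S phase median from -1.03 to -0.26. The S phase median was -0.24 with the replicate block, -0.21 without WT replicates 2 and 6 and -0.10 with detected genes as covariate, where that of all genes was -0.26. Both medians stayed negative in all alternatives run. Detected genes were fewer in both cKO libraries than in every WT library, so a fit with them separates that number from the group poorly. With detected genes as a covariate, the sign turned to higher for Cdk4 (0.023), Mcm4 (0.011), Mcm7 (0.19), Aurkb (0.85) and Mad2l1 (0.35). It turned to lower for Cdkn1b (-1.70), Cdkn1c (-0.29), Foxm1 (-0.64), Cenpe (-0.64), Kif11 (-0.14), Top2a (-0.47) and Mki67 (-0.99). Without a turn of sign, Aurka moved to -0.61, Pcna to -0.32, Spc25 to -0.98 and Ccnd1 to 2.94. Spc25 passed without a filter (-2.06, adjusted p = 0.0498). Shared replicate numbers do not tie libraries to an animal, so the block is not taken as a pairing. The deviations of libraries numbered alike had r = -0.30 and -0.17 for numbers 1 and 2. With 2 cKO libraries the cKO deviations are mirror images, so this r cannot tell whether libraries share an animal. DESeq2's size factors moved the median of all genes to 0.05, against -0.08 with TMM. With 1 cKO library left out, the other is assumed to vary like WT. The cause of these differences was not tested.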
